A study of Mus musculus with 12 samples.

Results

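Sorted nephron progenitor cells of 4 K litters were compared with those of 4 normal-diet litters over all genes of the deposited table. These are 8 of the 12 libraries of the series, chosen by the library titles and the column names, and the other 4 are the BHB arm. Counts were present for 49164 gene entries, and 17697 passed the filter on low counts and were tested. The series compared fetal kidneys of mothers kept on different regimens through pregnancy, and the question here is which transcripts of the progenitors differed between the K and the normal arm.

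The K arm is 4 libraries titled as ketogenic diet (spelled "Keogenic"), whose treatment field reads normal diet with β-hydroxybutyrate. The normal arm is 4 libraries whose title and treatment field both read normal diet. The BHB libraries are titled β-hydroxybutyrate and carry the ketogenic diet in the treatment field, so the 2 fields contradict each other in both treated arms. K is therefore the name of a set of libraries here, and which regimen it received is not settled by the labels. All litters shared one cross: wild-type outbred CD1 females, mated at 8 to 10 weeks with males carrying the Six2-EGFP/cre transgene, gave heterozygous embryos that were taken at embryonic day E17.5. The regimens ran from conception, and a calorie-restricted diet that the labels also describe is not named for any of these libraries. Kidneys of all embryos were used without separating the sexes, and GFP-positive cells were sorted, with 50000 to 100000 cells giving the RNA of a library. GFP reports the transgene, so a cell that still holds the protein after it has begun to differentiate can also fall in the gate.

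Nephron progenitors lie in the cap mesenchyme around the ureteric tips, where the transcription factor Six2 keeps them renewing until Wnt signals commit them to form nephrons. Fetal progenitors are known to lean on glycolysis, while the maturing tubule turns to mitochondrial oxidation of fatty acids. When fatty acids and ketone bodies are abundant, PPAR receptors are known to switch on genes of fatty acid oxidation and ketone body synthesis, and polyunsaturated dietary fat is known to hold down the stearoyl-CoA desaturases.

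Total counts were 9651130 to 10728338 in K and 8292620 to 11404335 in normal libraries. The first principal component of the 8 libraries took 62.5% of the variance and set K 3 and K 4 apart, at 78.9 and 70.4, from K 1 and K 2 at -7.38 and -26.3, and from the normal libraries at -55.7 to -9.04. Six2 (ENSMUSG00000024134), the gene that defines the sorted cells, was present in every library, at 381, 441, 228 and 246 CPM (counts scaled to a common library total) in K 1 to 4, against 460, 510, 379 and 432 CPM in normal 1 to 4. It was lowest in K 3 and K 4, and the arms overlapped (log2 difference -0.46 ± 0.23 SE, edgeR adjusted p = 0.281). In bulk RNA, fewer cells of a type and less RNA per cell cannot be told apart.

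Markers of more mature or other cells were also present, and most were highest in K 3 and K 4. Proximal tubule markers, the genes of the reabsorbing segment after the glomerulus, summed to 633, 482, 3843 and 4137 CPM in K 1 to 4, against 421, 194, 1189 and 1774 CPM in normal 1 to 4. The sum was above every normal library in K 3 and K 4 only, and in each pair of libraries with the same number the K library was higher. Loop of Henle and distal tubule markers summed to 922, 373, 3668 and 3325 CPM in K 1 to 4, against 537, 209, 779 and 325 CPM in normal 1 to 4. Endothelial markers summed to 106, 79.1, 284 and 218 CPM in K 1 to 4, against 51.9, 28.0, 42.9 and 34.01 CPM in normal 1 to 4, and here every K litter was above every normal litter. Stromal markers summed to 895, 862, 601 and 633 CPM in K 1 to 4, against 825, 789, 715 and 695 CPM in normal 1 to 4. K 1 and K 2 were above every normal library for these, and K 3 and K 4 were below. No marker of these lists was at 0 in all 4 libraries of either arm. Medians of gene classes are given below with all K litters and without K 3 and K 4, and the part of these cell markers in them was not tested.

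**Figure D1:**
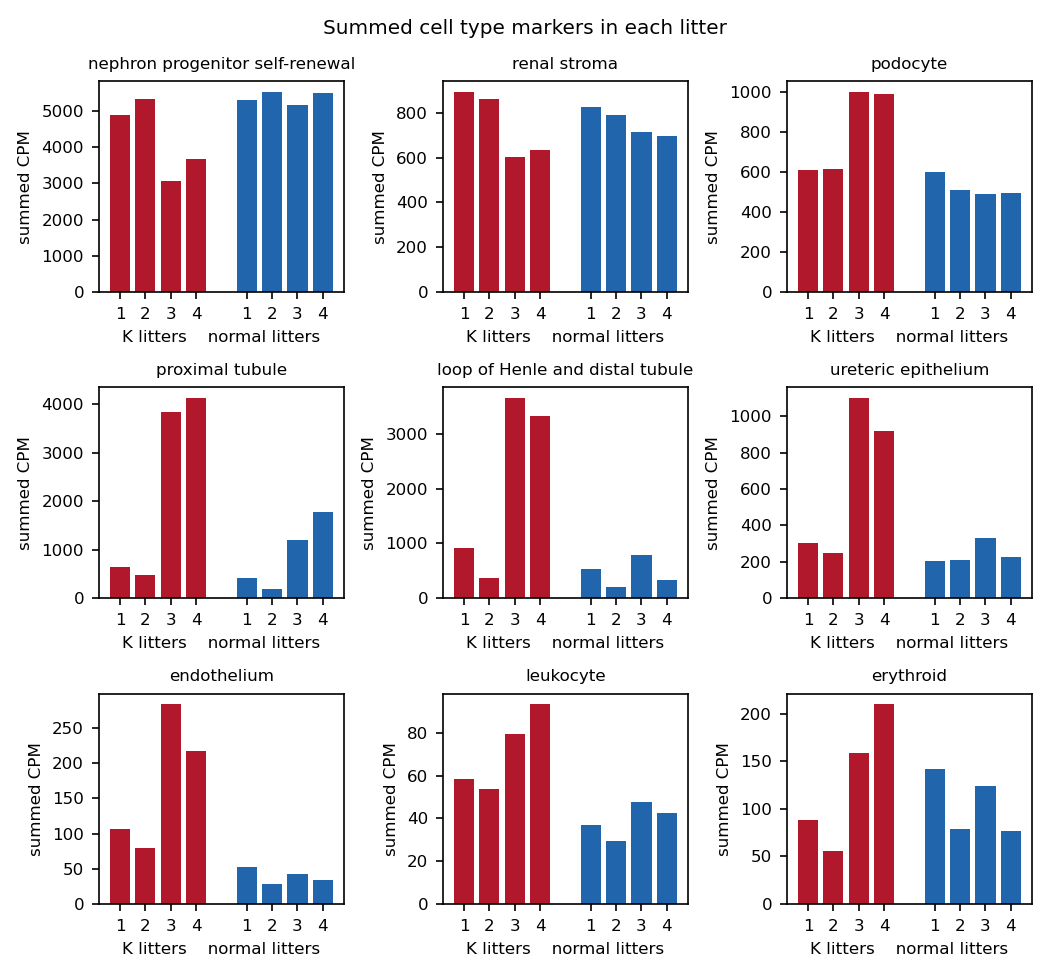
Bars give the summed CPM of the markers of each cell type in K litters 1 to 4 (red, left) and normal litters 1 to 4 (blue, right). Tubule and ureteric sums stood highest in K 3 and K 4, endothelial and leukocyte sums were higher in every K litter, and the self-renewal sum was lowest in K 3 and K 4 (3055 and 3666 CPM).

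After Benjamini-Hochberg adjustment over all genes, 0 genes were called by the quasi-likelihood test of edgeR (0%, smallest adjusted p = 0.103). An unadjusted p under 0.05 was reached by 2142 genes that were higher in K (12.1%) and 1360 that were lower (7.68%). The arms did not overlap for 862 genes that were higher in every K litter (4.87%) and 930 that were lower in every K litter (5.26%). The higher group had the larger steps, with a median log2 difference of 0.65 and 310 genes past 1 log2, while the lower group had a median of -0.31 and 23 genes past 1 log2. Genes lower in every K litter were also more abundant, at a median of 47.5 CPM in normal litters, against 8.61 CPM for those higher in every K litter and 14.97 CPM for all genes tested. Litters of the K arm spread more: the SD of log2 CPM was larger in K than in normal for 12455 of the 17697 genes (70.4%), with medians of 0.26 and 0.17.

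Deviations of same-numbered K and normal samples from their arm means correlated at 0.114 to 0.461. K 1 correlated more with normal 2 (0.464) and K 4 more with normal 3 (0.442), and the labels do not say what a number marks. With that limit, the comparison was also fitted with K and normal paired by number. That fit called 383 genes higher in K (2.16%) and 55 lower (0.311%), of which 170 and 41 had arms that did not overlap. The same pairing fitted over all 12 libraries called 0 genes (smallest adjusted p = 0.323), so every paired call below rests on the fit of the 8 libraries alone. In an unpaired fit with K 3 and K 4 left out, 314 of the 383 were higher in K, at a median of 0.49 against 1.42 in the paired fit. All 55 of the 55 were lower, at -0.26 against -0.48. K 1, K 2 and the normal litters had helped to select these genes, so the kept directions are no separate check. The calls rest on few pairs: 0 genes were called without pair 3 or without pair 4, while 850 were called without pair 1 and 528 without pair 2. DESeq2 called 296 genes without pairing, 217 higher and 79 lower. Below, "called in the paired fit" refers to an adjusted p at or under 0.05 there, and every gene named without an adjusted p of its own had one of 0.221 to 0.807 in the unpaired edgeR test.

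Among single genes the mitochondrially encoded mt-Nd6 and the cell-surface receptor gene Igdcc3 stood first. mt-Nd6 (ENSMUSG00000064368), a subunit of respiratory complex I, was at 315, 358, 415 and 377 CPM in K 1 to 4, against 147, 145, 162 and 218 CPM in normal 1 to 4. Every K litter lay well above the highest normal litter (log2 difference 1.13 ± 0.15 SE, edgeR adjusted p = 0.103, and 0.0104 in the paired fit). It is encoded antisense to its mitochondrial neighbours, and whether counting used strand is not stated in the labels. Igdcc3 (ENSMUSG00000032394), an immunoglobulin-superfamily receptor of the DCC group, was at 13.4, 15.8, 12.3 and 9.91 CPM in K 1 to 4, against 27.4, 27.6, 27.6 and 28.3 CPM in normal 1 to 4. The normal litters were nearly level and every K litter was far below them (-1.10 ± 0.16, adjusted p = 0.115, and 0.0248 in the paired fit). These were the only genes called by edgeR without the count filter (adjusted p = 0.0252 for mt-Nd6 and 0.0105 for Igdcc3) and by limma voom with sample weights (0.0252 and 0.0211). Without normal 4, mt-Nd6 alone was called (0.0158).

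The next genes higher in every K litter included parts of the nutrient-sensing machinery at the lysosome. Fnip1 (ENSMUSG00000035992), a binding partner of folliculin, was at 84.6, 85.8, 77.5 and 83.6 CPM in K 1 to 4, against 53.5, 61.0, 53.3 and 58.1 CPM in normal 1 to 4. All K litters were alike, K 3 and K 4 included, and the log2 difference was 0.55 ± 0.11 SE, or 0.60 without K 3 and K 4 (paired adjusted p = 0.0260). Flcn (ENSMUSG00000032633) encodes folliculin, which acts on the Rag GTPases that bring mTORC1 to the lysosome. It was at 49.5, 54.8, 56.0 and 58.3 CPM in K 1 to 4, against 43.4, 45.8, 40.5 and 41.9 CPM in normal 1 to 4, a log2 difference of 0.35 ± 0.07 SE. Atp6v0c, the membrane ring of the proton pump that acidifies lysosomes, was at 118, 118, 142 and 157 CPM in K 1 to 4, against 93.0, 96.4, 107 and 93.7 CPM in normal 1 to 4. It was higher in K 3 and K 4 than in the other K litters, and its log2 difference of 0.46 was 0.28 without those litters. Fnip2, the other folliculin partner, was at 58.0, 49.8, 71.3 and 82.3 CPM in K 1 to 4, against 46.5, 45.2, 49.4 and 45.2 CPM in normal 1 to 4, with K 2 just above the highest normal litter.

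The remaining leading genes on the higher side differed in the size of their step. Arl6ip1, which shapes the endoplasmic reticulum, Ppm1k, the phosphatase that activates branched-chain keto acid breakdown, Cds2, a phospholipid synthesis enzyme, and Sdc2, a heparan sulphate proteoglycan, differed by 0.53, 0.47, 0.32 and 0.45 on the log2 scale. Entpd1, the ATP-degrading ectoenzyme of vessels and leukocytes, was at 1.51, 1.53, 3.33 and 2.61 CPM in K 1 to 4, against 0.57, 0.39, 0.17 and 0.24 CPM in normal 1 to 4. Ccm2l, an endothelial gene, was at 0.60, 0.57, 1.29 and 1.57 CPM in K 1 to 4, and was detected in normal 1 alone among the normal litters, at 0.094 CPM. Both genes were higher in every K litter, as the endothelial marker sum was. Atp12a, a proton and potassium pump subunit, was at 5.94, 15.2, 39.3 and 41.3 CPM in K 1 to 4, against 2.08, 2.65, 3.64 and 1.91 CPM in normal 1 to 4. Its log2 difference of 3.29 ± 0.66 SE was 2.04 without K 3 and K 4 (paired adjusted p = 0.0394).

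**Figure D2:**
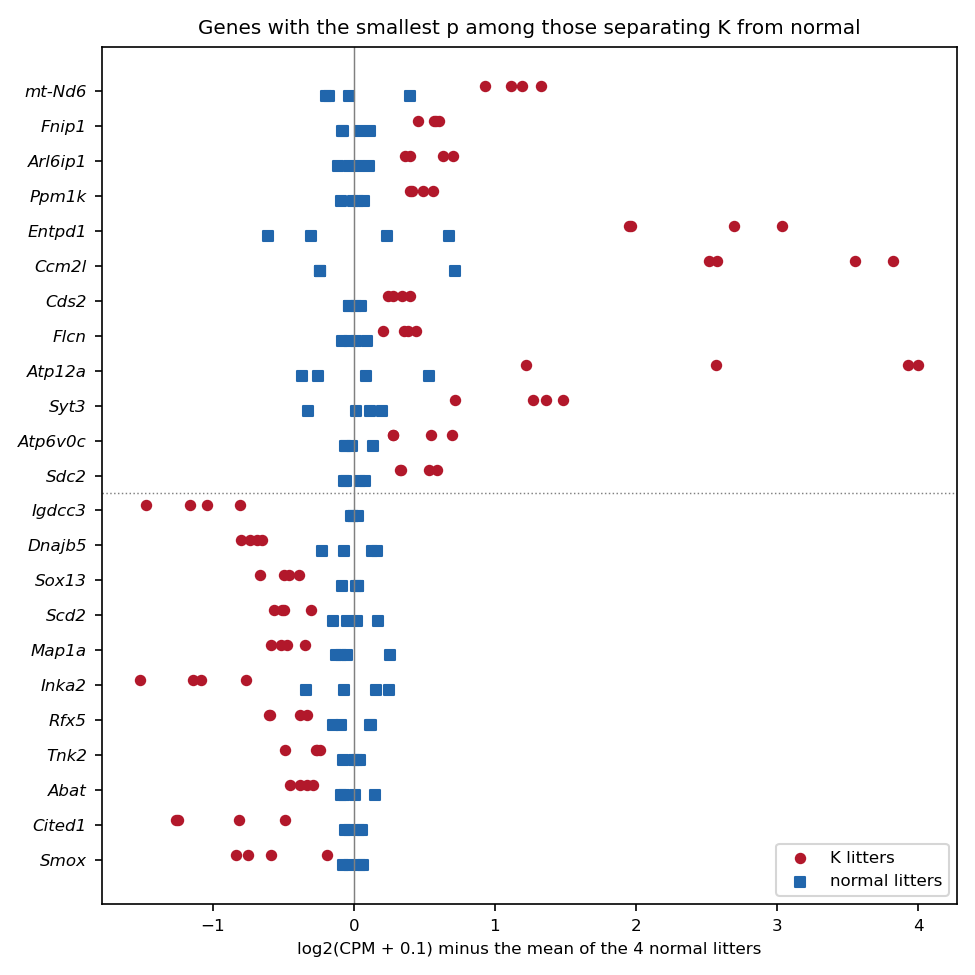
Each point is a litter (K red circles, normal blue squares), placed by log2(CPM + 0.1) minus the mean of the 4 normal litters, for the 12 genes with the smallest edgeR p among those higher in every K litter (top) and for 11 of the 12 among those lower in every K litter (bottom). Fnip1, Cds2 and Flcn were tight in both arms, whereas Atp12a and Ccm2l spread widely.

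On the lower side, Dnajb5, a co-chaperone of the DnaJ family, was at 9.87, 9.10, 9.55 and 10.1 CPM in K 1 to 4, against 17.45, 17.9, 13.6 and 15.2 CPM in normal 1 to 4. The K litters were nearly level, and the log2 difference was -0.73 ± 0.12 SE, or -0.75 without K 3 and K 4 (paired adjusted p = 0.0483). Sox13, a SoxD transcription factor, was at 65.1, 60.7, 61.9 and 53.9 CPM in K 1 to 4, against 87.2, 87.2, 86.5 and 80.7 CPM in normal 1 to 4 (paired adjusted p = 0.0342). Tnk2, a non-receptor tyrosine kinase, Rfx5, an activator of MHC class II genes, and Map1a, a microtubule-binding protein, differed by -0.31, -0.48 and -0.49. Abat, the enzyme that degrades the transmitter GABA, and Smox, which oxidises spermine, differed by -0.36 and -0.57. The low-abundance gene Inka2 was at 2.30 to 3.93 CPM in K litters, against 5.29 to 8.04 CPM in normal litters. Cited1 (ENSMUSG00000051159), a transcriptional co-regulator of the earliest cap cells, was at 13.5, 17.0, 9.98 and 9.91 CPM in K 1 to 4, against 22.8, 24.8, 24.5 and 23.3 CPM in normal 1 to 4. Its difference of -0.92 ± 0.20 SE was -0.64 without K 3 and K 4 (paired adjusted p = 0.0401).

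Genes that answer low oxygen and genes of glucose use were higher in K with and without K 3 and K 4. Transcripts of Bnip3 and Slc2a1, of the hypoxia list, and of Fnip1, of the mTOR and AMPK list, separated the arms in all 8 litters. Their promoters are shown for that reason and because each holds a motif that was counted over all promoters. They are the 250 bases before the transcription start in RefSeq on GRCm38.p6, read 5′ to 3′ in the sense of the gene, at chr7:138909507-138909756 on the minus strand for Bnip3, chr4:119108495-119108744 on the plus strand for Slc2a1 and chr11:54437929-54438178 on the plus strand for Fnip1. Capitals mark ACGTG, the core of hypoxia response elements, in Slc2a1, and CACGTG, the palindromic E-box that also holds ACGTG on both strands, in Bnip3 and Fnip1.
Bnip3: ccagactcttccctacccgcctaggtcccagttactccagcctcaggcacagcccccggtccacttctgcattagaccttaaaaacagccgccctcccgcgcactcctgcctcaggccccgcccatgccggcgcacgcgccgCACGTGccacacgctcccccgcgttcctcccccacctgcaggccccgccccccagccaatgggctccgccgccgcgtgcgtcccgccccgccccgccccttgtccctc
Slc2a1: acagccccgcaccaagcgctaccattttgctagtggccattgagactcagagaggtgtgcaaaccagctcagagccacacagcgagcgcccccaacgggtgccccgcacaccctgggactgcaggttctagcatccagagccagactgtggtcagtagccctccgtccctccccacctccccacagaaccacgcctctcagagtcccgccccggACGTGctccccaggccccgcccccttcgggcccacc
Fnip1: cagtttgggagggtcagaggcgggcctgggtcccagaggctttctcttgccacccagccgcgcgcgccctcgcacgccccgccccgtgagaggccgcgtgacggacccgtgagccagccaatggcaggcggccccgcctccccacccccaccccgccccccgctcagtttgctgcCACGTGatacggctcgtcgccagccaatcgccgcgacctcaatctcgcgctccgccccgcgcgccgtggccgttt
The motif began 36 bases before the start in Slc2a1 and 75 in Fnip1, and in Bnip3 its overlapping matches on the 2 strands began 108 and 107 bases before the start. Of the 11447 tested genes with such a promoter, 2793 (24.4%) held ACGTG on either strand, as did 13 of the 19 hypoxia targets with a promoter (68.4%), 8 of 17 lysosome genes (47.1%), 8 of 18 glycolysis genes (44.4%), 7 of 20 immediate-early genes (35%), 7 of 22 genes of the mTOR and AMPK list (31.8%), 4 of 17 vacuolar ATPase subunits, 1 of 17 fatty acid oxidation genes and 0 of 11 PPAR targets. CACGTG stood in 1102 of the 11447 (9.63%) and in 7 of 17 lysosome genes (41.2%), 5 of 20 immediate-early genes (25%), 3 of 18 glycolysis genes, 3 of 19 hypoxia targets, 2 of 17 vacuolar ATPase subunits and 2 of 22 genes of the mTOR and AMPK list, Fnip1 and Rheb. No PPAR target or fatty acid oxidation gene held it. A match describes the letters only, and no binding was measured here. The share of a list depends on how its genes were chosen, and says nothing about the litters compared.

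Of 21 hypoxia targets, 19 were higher in K and 8 were higher in every K litter (38.1%, against 4.87% of all genes tested). Their median log2 difference was 0.55, or 0.39 without K 3 and K 4, beside 0.00 for all genes under both. Bnip3 (ENSMUSG00000078566), a receptor that marks mitochondria for removal, was at 51.3, 53.5, 78.1 and 65.6 CPM in K 1 to 4, against 22.4, 27.9, 27.5 and 44.6 CPM in normal 1 to 4. K 1 and K 2 lay just above normal 4, the highest normal litter, and far above the others (1.03 ± 0.26 SE, paired adjusted p = 0.0363). The angiogenic factor Vegfa was at 314, 353, 391 and 394 CPM in K 1 to 4, against 246, 252, 242 and 303 CPM in normal 1 to 4. Normal 4 again stood nearest to the K litters (0.48 ± 0.15 SE, paired adjusted p = 0.0394). Stc2, a secreted glycoprotein of calcium and phosphate balance, was at 5.94 to 13.0 CPM in K, against 3.38 to 5.97 CPM in normal, so that K 1 and normal 4 overlapped.

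Of 20 genes of glycolysis and glucose uptake, 18 were higher in K under both settings, and 4 were higher in every K litter (20%, against 4.87% of all genes). Their median was 0.40, or 0.24 without K 3 and K 4. Slc2a1 (ENSMUSG00000028645), the basal glucose transporter, was at 137, 135, 205 and 184 CPM in K 1 to 4, against 99.7, 91.0, 88.1 and 102 CPM in normal 1 to 4 (0.79 ± 0.25 SE, paired adjusted p = 0.0402). Every K litter was above every normal litter by a clear step. Gpi1 and Pgk1, enzymes of the upper and lower parts of the pathway, were at 336 to 457 and 238 to 310 CPM in K, against 273 to 328 and 182 to 223 CPM in normal, with log2 differences of 0.40 and 0.39.

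All 13 mitochondrially encoded protein genes were higher in K, with and without K 3 and K 4, at medians of 0.38 and 0.32. Of these, 5 were higher in every K litter (38.5%, against 4.87% of all genes), and 5 were called in the paired fit (2.16% of all genes were called higher). mt-Nd2, another complex I subunit, was at 985, 1005, 1076 and 997 CPM in K 1 to 4, against 583, 664, 832 and 827 CPM in normal 1 to 4. mt-Co1, a catalytic subunit of cytochrome c oxidase, was at 3167, 3081, 4002 and 4256 CPM in K 1 to 4, against 2002, 2005, 2774 and 2930 CPM in normal 1 to 4 (paired adjusted p = 0.0245). In both genes normal 1 and normal 2 were lower than normal 3 and normal 4. mt-Atp8, a subunit of ATP synthase, was at 209 to 242 CPM in K and 103 to 189 CPM in normal. Class medians by litter showed the same order, at 0.41, 0.29, 0.58 and 0.48 in K 1 to 4, against -0.26, -0.23, 0.25 and 0.29 in normal 1 to 4, so that K 2 and normal 4 were level.

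The nuclear genes of the same complexes followed another pattern. Of 39 nuclear complex I subunits, 37 were higher in K over all litters at a median of 0.29, but without K 3 and K 4 the count was 10 and the median -0.06. Nuclear subunits of complexes III and IV (21 of 21 higher, median 0.37) and of ATP synthase (17 of 18, median 0.34) had medians of -0.04 and -0.08 without those litters. The tricarboxylic acid cycle behaved alike, with 22 of 22 genes higher at 0.36 and 9 of 22 at -0.02. Uqcrb, of complex III, was at 55.6, 47.8, 109 and 79.6 CPM in K 1 to 4, against 42.5, 43.8, 50.9 and 55.9 CPM in normal 1 to 4, and Idh2, of the cycle, was at 285, 266, 511 and 403 CPM, against 242, 249.9, 254 and 283 CPM. In both genes K 3 and K 4 were high and K 2 lay within the normal range, as did K 1 for Uqcrb. Ndufc2, of complex I, separated the arms, at 34.9, 34.9, 47.4 and 35.3 CPM in K 1 to 4, against 26.5, 27.7, 28.2 and 29.8 CPM in normal 1 to 4. Proximal and distal tubule markers were also highest in K 3 and K 4, as given above, and their part in these medians was not tested.

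**Figure D3:**
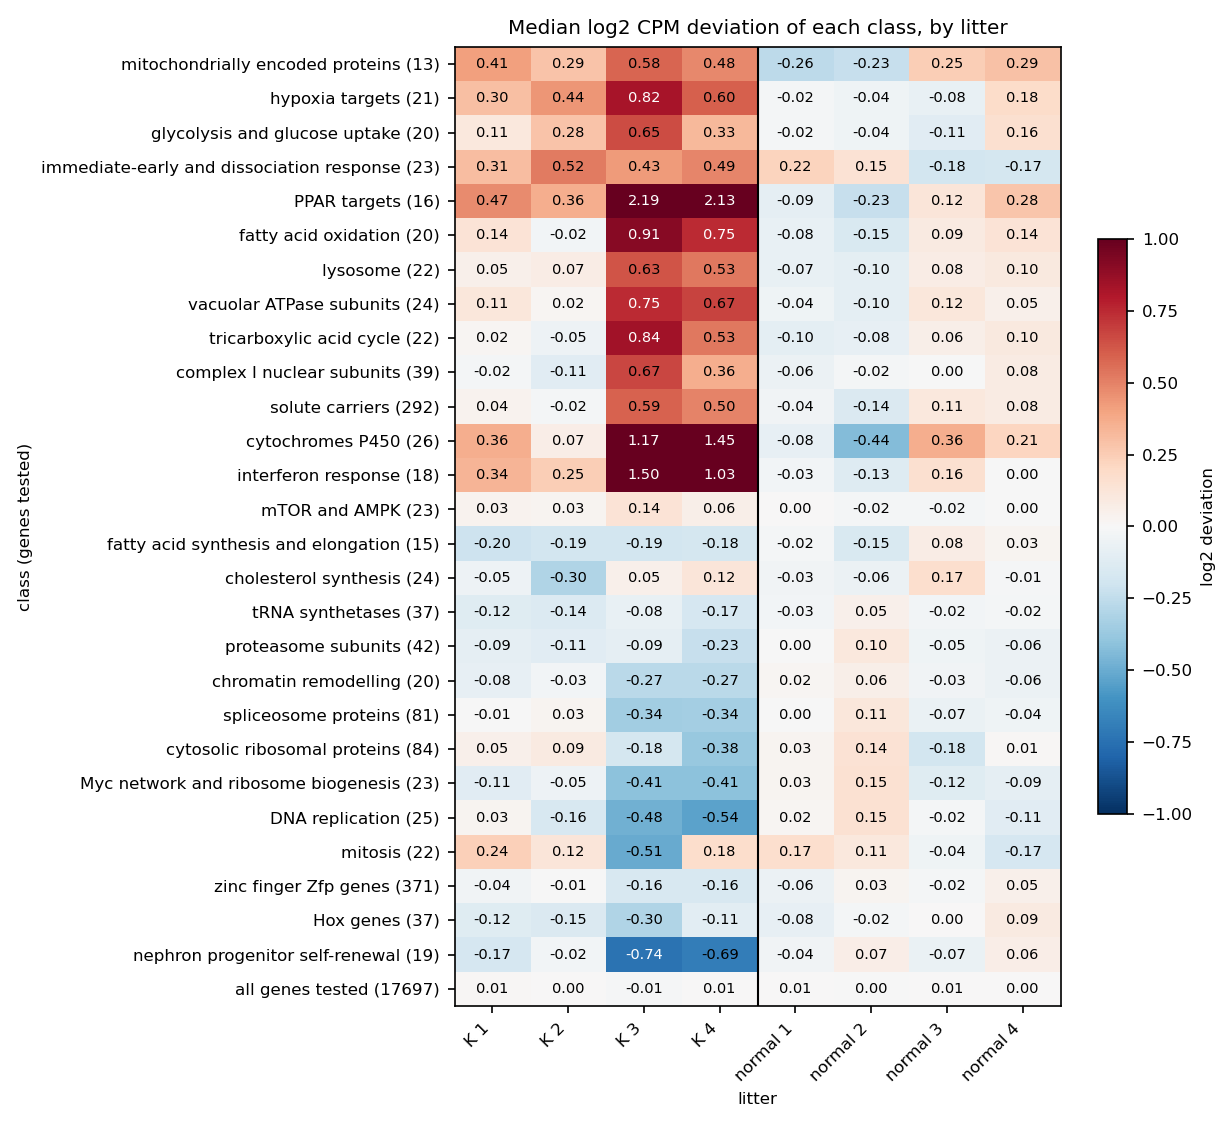
Each cell is the median, over the genes of a class, of log2 CPM minus the mean of the 4 normal litters, with K litters left of the line and normal litters right of it; the number of genes tested stands beside each class. Mitochondrially encoded, hypoxia, glycolysis and immediate-early genes were above 0 in all K litters, while nuclear respiratory genes, lysosome, solute carriers and cytochromes P450 were high mainly in K 3 and K 4.

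Genes of fatty acid oxidation were higher in K over all litters, and most genes of fatty acid synthesis were lower. Of 16 PPAR targets, all were higher in K at a median of 1.51, 8 were higher in every K litter (50%, against 4.87% of all genes) and 7 were called in the paired fit, against 2.16% of all genes. Without K 3 and K 4, 15 of 16 were higher and the median was 0.44. G0s2, an inhibitor of the lipase that opens fat stores, was at 2.42, 2.49, 8.05 and 5.22 CPM in K 1 to 4, against 1.13, 0.98, 1.30 and 0.60 CPM in normal 1 to 4. K 3 and K 4 were the highest, and K 1 and K 2 were also above every normal litter (2.14 ± 0.48 SE, or 1.27 without K 3 and K 4; paired adjusted p = 0.0427). Cyp4a10, a fatty acid hydroxylase with close paralogs, and Angptl4, an inhibitor of lipoprotein lipase, had the same order, at 1.41 to 16.3 and 6.42 to 38.3 CPM in K and 0.19 to 1.04 and 3.14 to 5.37 CPM in normal. Both were called in the paired fit.

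Fatty acid oxidation genes were higher in K in 20 of 20 cases at a median of 0.53, against 14 of 20 at 0.04 without K 3 and K 4. Cpt1a (ENSMUSG00000024900), the gate for fatty acids into mitochondria, was at 122, 105, 289.9 and 228 CPM in K 1 to 4, against 78.0, 64.6, 81.4 and 66.6 CPM in normal 1 to 4. It separated the arms, with K 1 and K 2 nearer to normal (1.358 ± 0.31 SE, or 0.65 without K 3 and K 4). Hadhb, of the trifunctional protein, was at 46.3 to 75.3 CPM in K, against 35.7 to 44.0 CPM in normal, and was called in the paired fit (adjusted p = 0.0472). Branched-chain amino acid breakdown went with K 3 and K 4, with 16 of 18 genes higher at 0.30 and 8 of 18 at -0.03 without them.

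Of 15 genes of fatty acid synthesis and elongation, 10 were lower in K and 6 were lower in every K litter (40.0%, against 5.26% of all genes), at a median of -0.15, or -0.20 without K 3 and K 4. The other 5 were higher in K. An unadjusted edgeR p under 0.05 was reached by 6 lower and 3 higher members (7.68% and 12.1% of all genes). Scd1 (ENSMUSG00000037071), a desaturase that makes monounsaturated fatty acids, was at 4.53, 3.07, 5.58 and 8.56 CPM in K 1 to 4, against 12.2, 9.42, 12.0 and 12.2 CPM in normal 1 to 4. K 1 and K 2 were the lowest, and the difference of -1.07 ± 0.27 SE was -1.58 without K 3 and K 4 (paired adjusted p = 0.0443). Scd2, the more abundant desaturase of these cells, was at 563, 642, 557 and 535 CPM in K 1 to 4, against 766, 714, 890.3 and 806 CPM in normal 1 to 4. Every K litter was below every normal litter, and K 2 was the nearest to them. Fads2, which desaturates polyunsaturated fatty acids, and Acaca, which makes malonyl-CoA, differed by -0.43 and -0.35, and by -0.28 and -0.20 without K 3 and K 4.

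Cholesterol synthesis genes differed among the K litters, with class medians of -0.05, -0.30, 0.05 and 0.12 in K 1 to 4, against -0.03, -0.06, 0.17 and -0.01 in normal 1 to 4. Over all litters 14 of 24 genes were lower at a median of -0.03, and without K 3 and K 4 the count was 23 of 24 at -0.19. Sqle, squalene epoxidase, was at 33.1, 29.9, 36.5 and 45.1 CPM in K 1 to 4, against 39.8, 43.5, 48.7 and 47.6 CPM in normal 1 to 4, with K 4 inside the normal range.

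Lysosome and proton pump genes were higher in K mainly through K 3 and K 4. Of 22 lysosome genes 21 were higher at a median of 0.30, and 13 at 0.07 without these litters; of 24 vacuolar ATPase subunits 20 were higher at 0.45, and 14 at 0.06. Npc2, which carries cholesterol out of lysosomes, did not follow K 3 and K 4, at 54.3, 56.2, 54.9 and 57.3 CPM in K 1 to 4, against 43.6, 47.3, 47.0 and 46.5 CPM in normal 1 to 4. Lamp2 and the protease gene Ctsl were at 117 to 166 and 157 to 220.0 CPM in K, against 95.5 to 116 and 113 to 146 CPM in normal, and both were called in the paired fit. The mTOR and AMPK list as a whole was near 0, with 13 of 23 genes higher at a median of 0.06, and 12 of 23 at 0.00 without K 3 and K 4; 4 were higher in every K litter (17.4%, against 4.87%). Tsc1, whose reduced dosage in progenitors is known to delay the end of nephron formation in mice, was at 140.1, 142, 141 and 150.1 CPM in K 1 to 4, against 133, 126, 128 and 123 CPM in normal 1 to 4. Its step was small (0.17 ± 0.06 SE).

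**Figure D4:**
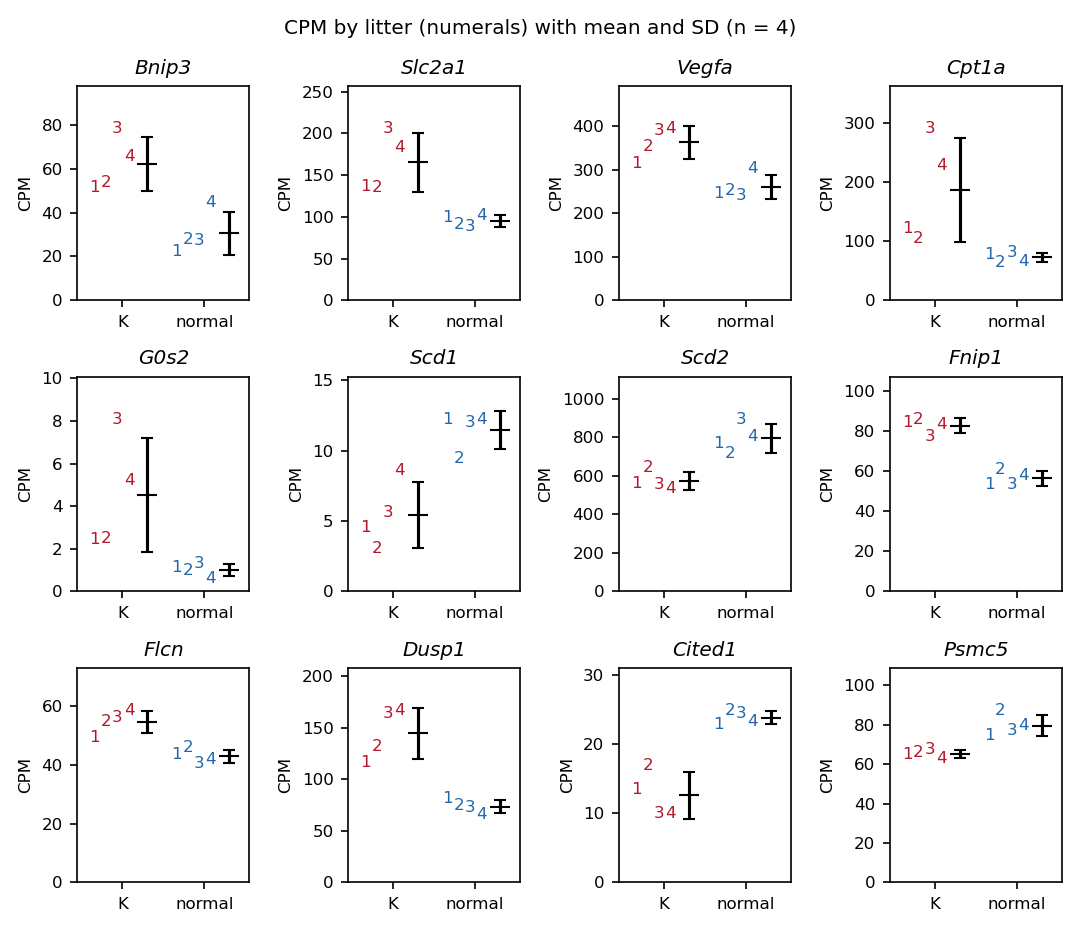
Numerals mark the CPM of K litters 1 to 4 (red, left) and normal litters 1 to 4 (blue, right), and bars give the mean and SD (n = 4) of 12 genes of energy supply, nutrient sensing, stress, progenitor state and protein breakdown. All 12 are from the genes whose arms did not overlap (4.87% of tested genes higher in every K litter and 5.26% lower), so the separation is no added result. Cpt1a and G0s2 were highest in K 3 and K 4, while Scd1 was lowest in K 1 and K 2.

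Proteasome subunits and tRNA synthetases were lower in K by small steps, with and without K 3 and K 4, while chaperone lists differed. Of 42 proteasome subunits 36 were lower at a median of -0.12, and 35 at -0.10 without K 3 and K 4; 6 were lower in every K litter (14.3%, against 5.26% of all genes). Psmc5, an ATPase of the regulatory particle, was at 65.0, 65.9, 67.6 and 62.7 CPM in K 1 to 4, against 74.5, 87.1, 77.0 and 79.5 CPM in normal 1 to 4. Psmb3, of the catalytic core, was at 27.4 to 32.4 CPM in K and 35.1 to 37.6 CPM in normal. Psmb8, the interferon-induced subunit of the immunoproteasome, was higher in every K litter, at 1.01, 0.57, 2.25 and 1.04 CPM in K 1 to 4, against 0.19, 0.098, 0.43 and 0.12 CPM in normal 1 to 4 (paired adjusted p = 0.0394). Of 37 tRNA synthetases, the enzymes that load amino acids on tRNA, 30 were lower at -0.12, and 35 at -0.12 without K 3 and K 4; 7 were lower in every K litter (18.9%). Vars, the valine enzyme, was at 151, 145, 128 and 123 CPM in K 1 to 4, against 179.6, 187, 156 and 170.1 CPM in normal 1 to 4 (paired adjusted p = 0.0479). Tars and Cars, for threonine and cysteine, differed by -0.23 and -0.28. Of 69 heat shock and DnaJ proteins 33 were higher and 36 lower, at a median of -0.02 (0.00 without K 3 and K 4). Of 16 cytosolic heat shock genes 12 were lower at -0.18, and 9 at -0.01 without those litters. In the paired fit 3 of the 16 were called lower, where 0.311% of all genes were. Endoplasmic reticulum chaperones were split 10 to 10 at -0.01, but 17 of 20 were lower at -0.10 without those litters. Of 56 translation initiation factors 40 were lower at -0.10, against 27 of 56 at 0.01 without K 3 and K 4.

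Other parts of the growth machinery were lower chiefly through K 3 and K 4. Ribosome biogenesis and Myc network genes were lower in 22 of 23 cases at a median of -0.22, and 18 of 23 at -0.07 without these litters. Ubtf, an activator of ribosomal RNA transcription, was at 265, 277, 233 and 231 CPM in K 1 to 4, against 321, 348, 288 and 297 CPM in normal 1 to 4, and Bop1, which processes ribosomal RNA, was at 39.0, 39.5, 31.8 and 28.2 CPM, against 51.3, 51.3, 47.8 and 39.7 CPM. Both were called in the paired fit (adjusted p = 0.0462 and 0.0439), with K 3 and K 4 the lowest. Cytosolic ribosomal protein genes, many of which share reads with processed copies, were lower in 75 of 84 cases at -0.10, but higher in 68 of 84 at 0.07 without K 3 and K 4. Spliceosome proteins had medians of -0.15 and 0.01. Prpf31, a splicing factor of the U4/U6 particle, was lower in every K litter all the same, at 73.6 to 89.9 CPM in K and 96.7 to 106 CPM in normal.

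Replication and mitosis genes differed in how they stood without K 3 and K 4. All 25 replication genes were lower in K at a median of -0.27, and 19 of 25 at -0.06 without K 3 and K 4. Mcm2, of the replicative helicase, was at 186, 171, 134 and 122 CPM in K 1 to 4, against 207, 234, 190.0 and 196 CPM in normal 1 to 4, and Rfc2, a clamp loader subunit, was at 41.0 to 46.2 CPM in K and 50.5 to 58.3 CPM in normal. Mitosis genes were near 0 over all litters (13 of 22 higher, median 0.02), but 22 of 22 were higher without K 3 and K 4, at 0.16. By litter the class medians were 0.24, 0.12, -0.51 and 0.18 in K 1 to 4, against 0.17, 0.11, -0.04 and -0.17 in normal 1 to 4. Among K litters only K 3 was low, while K 2 lay inside the normal range and K 1 and K 4 were little above normal 1. Aurka, a spindle kinase, was at 16.8, 18.4, 12.5 and 19.9 CPM in K 1 to 4, against 14.1, 15.7, 12.2 and 12.2 CPM in normal 1 to 4. K 3 stood below the other K litters, and the arms overlapped (0.32 ± 0.21 SE, adjusted p = 0.382).

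Chromatin remodelling genes, most Hox genes and most zinc finger genes were lower in K, while other chromatin lists were mixed. All 20 genes of the chromatin remodelling list were lower at a median of -0.15, and 15 of 20 at -0.05 without K 3 and K 4; 7 were lower in every K litter (35.0%, against 5.26%). Smarcb1, a core subunit of the SWI/SNF remodeller, was at 121, 121, 108 and 107 CPM in K 1 to 4, against 139, 145, 134 and 139.9 CPM in normal 1 to 4. Smarcd1 and the ATPase gene Smarca2, of the same complexes, differed by -0.29 and -0.26. Of 24 histone deacetylases, acetyltransferases and sirtuins 13 were higher at 0.09, and 12 at 0.00 without K 3 and K 4. Of 20 DNA methylation and Polycomb genes 13 were lower at -0.06, but 12 were higher at 0.03 without those litters. Of 37 Hox genes, which set position along the body axis, 25 were lower at -0.21, and 26 at -0.15 without K 3 and K 4; 7 were lower in every K litter (18.9%, against 5.26%). Hoxd11, one of the paralogs that kidney formation needs, was at 108, 109, 74.8 and 87.8 CPM in K 1 to 4, against 117, 121, 121 and 126 CPM in normal 1 to 4. Hoxd12 and Hoxa5 were at 18.5 to 26.4 and 27.0 to 41.0 CPM in K, against 31.5 to 37.6 and 46.4 to 51.8 CPM in normal. Of 371 zinc finger genes with Zfp symbols, many with near-identical copies, 249 were lower at a median of -0.08 and 44 were lower in every K litter (11.9%, against 5.26%), while 8 were higher in every K litter (2.16%, against 4.87%). Without K 3 and K 4 their median was -0.02. Zfp512b differed by -0.24, while Zfp36l1, which despite its symbol is an RNA-binding protein that speeds decay of messages, was higher, at 403, 406, 412 and 461 CPM in K 1 to 4, against 301, 339, 310.4 and 341 CPM in normal 1 to 4 (paired adjusted p = 0.0414).

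Immediate-early genes, which dissociation of tissue is known to induce, were higher in K with and without K 3 and K 4. Of 23 such genes 22 were higher at a median of 0.41, and 23 of 23 at 0.43 without those litters; 9 were higher in every K litter (39.1%, against 4.87%). Dusp1, a phosphatase that switches off MAP kinases, was at 116, 132, 164 and 166 CPM in K 1 to 4, against 81.1, 74.5, 72.5 and 66.1 CPM in normal 1 to 4 (0.97 ± 0.24 SE, paired adjusted p = 0.0363). Fosb, of the AP-1 factor, was at 1252, 1655, 1338 and 1450 CPM in K 1 to 4, against 1095, 1008, 956 and 992 CPM in normal 1 to 4, and Klf4, a zinc finger factor, was at 133, 181, 151 and 154 CPM, against 104, 101, 96.5 and 105 CPM. K 2 was the highest in both genes, and every K litter was above every normal litter. Ier3 was at 8.14 to 31.2 CPM in K and 5.20 to 7.74 CPM in normal.

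Other stress lists were mixed. Nupr1, a small chromatin protein induced by nutrient stress, was at 1.81, 3.45, 4.08 and 6.05 CPM in K 1 to 4, against 0.57, 0.20, 0.35 and 0.36 CPM in normal 1 to 4 (paired adjusted p = 0.0251). Slc3a2, the heavy chain of amino acid exchangers, was at 85.6 to 152 CPM in K and 72.6 to 82.7 CPM in normal. The ATF4 target list that holds both genes had a median of 0.04 with 10 of 17 members higher, and of -0.02 with 8 of 17 higher without K 3 and K 4. In the paired fit 2 of the 17 were called higher, where 2.16% of all genes were. Nupr1 was among them, and Slc3a2 was not (paired adjusted p = 0.0792). Of 22 p53 targets 12 were higher at 0.06, but 14 were lower at -0.08 without K 3 and K 4. Bax, a promoter of cell death, was at 7.86, 9.29, 9.98 and 8.45 CPM in K 1 to 4, against 13.6, 12.3, 12.1 and 11.6 CPM in normal 1 to 4, and Aen, a nuclease of the same response, was at 23.3 to 30.3 CPM in K and 33.1 to 51.2 CPM in normal. Nrf2 and oxidative stress genes were higher in 17 of 20 cases at 0.54, and in 10 of 20 at 0.00 without K 3 and K 4. All 18 interferon response genes were higher at 0.84, and 15 of 18 at 0.37 without those litters, and leukocyte and endothelial marker sums were higher in every K litter.

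Progenitor genes were lower and early differentiation genes were mixed. Of 19 self-renewal genes 18 were lower in K at a median of -0.38, or 14 of 19 at -0.11 without K 3 and K 4, and 4 were lower in every K litter (21.1%, against 5.26%). Six4, a relative of Six2 that is not on that list, was at 45.2, 41.4, 38.7 and 34.2 CPM in K 1 to 4, against 59.5, 58.6, 52.2 and 50.01 CPM in normal 1 to 4 (paired adjusted p = 0.0401). Meox2, a homeobox factor of the cap, was at 7.55, 8.05, 4.83 and 3.65 CPM in K 1 to 4, against 8.96, 13.7, 8.24 and 8.83 CPM in normal 1 to 4. Of 20 early differentiation genes 13 were higher at 0.13, and 16 of 20 at 0.14 without K 3 and K 4. Lhx1, which the renal vesicle switches on, was at 25.5, 21.9, 29.5 and 40.4 CPM in K 1 to 4, against 21.3, 14.6, 19 and 17.0 CPM in normal 1 to 4. K 1 and K 2 stood just above normal 1, and K 4 was the highest. Igf2bp3, of the Lin28 and let-7 list, was at 73.7, 70.4, 65.0 and 69.6 CPM in K 1 to 4, against 58.3, 53.2, 63.1 and 51.4 CPM in normal 1 to 4, while that list had a median of -0.02, or 0.06 without K 3 and K 4.

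Signalling lists had medians between -0.20 and 0.07. Of 19 Hedgehog and retinoic acid genes 12 were lower at -0.20, and 13 at -0.05 without K 3 and K 4; 3 were lower in every K litter (15.8%, against 5.26%). Of 24 canonical Wnt genes 15 were lower at -0.07, but 14 were higher at 0.03 without K 3 and K 4. Members of that list lay on both sides, with 5 higher in every K litter (20.8%, against 4.87%) and 2 lower (8.33%, against 5.26%). Axin2, a feedback target of β-catenin, was at 99.3, 105, 77.6 and 71.9 CPM in K 1 to 4, against 120, 121, 107 and 125 CPM in normal 1 to 4, and Sp5, another target, was at 3.76 to 8.24 CPM in K and 9.91 to 12.4 CPM in normal. FGF and ERK feedback genes were lower in 16 of 19 cases at -0.12 over all litters, but higher in 13 of 19 at 0.08 without K 3 and K 4. Etv4, a target of RET and FGF signals, was lower in every K litter, at 88.1, 107, 61.2 and 72.0 CPM in K 1 to 4, against 124, 115, 111 and 124 CPM in normal 1 to 4. Of 17 Notch genes 12 were higher at 0.07, and 12 at 0.10 without K 3 and K 4; the ligand gene Jag1 was at 101, 81.9, 151 and 149 CPM in K 1 to 4, against 85.8, 69.1, 84.7 and 77.9 CPM in normal 1 to 4, with K 2 inside the normal range.

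Marker genes of other cells differed in how far they depended on K 3 and K 4. Of 14 endothelial markers 12 were higher in every K litter (85.7%, against 4.87%), at a median of 2.41, or 1.52 without K 3 and K 4. In the paired fit 10 of the 14 were called higher, where 2.16% of all genes were. Pecam1, the platelet and endothelial adhesion molecule, was at 12.0, 11.3, 33.8 and 28.0 CPM in K 1 to 4, against 5.76, 3.92, 4.94 and 4.42 CPM in normal 1 to 4. Kdr and Flt1, receptors for VEGF, were at 14.1 to 55.4 and 7.09 to 32.4 CPM in K, against 1.31 to 6.32 and 1.18 to 3.96 CPM in normal. Esam, an endothelial adhesion molecule, was at 4.31 to 10.6 CPM in K and 1.19 to 2.00 CPM in normal. Of 15 podocyte markers 10 were higher in every K litter (66.7%, against 4.87%) at a median of 1.41, or 0.70 without K 3 and K 4. Nphs1, nephrin of the slit diaphragm, was at 11.7, 7.76, 29.5 and 35.8 CPM in K 1 to 4, against 5.47, 1.47, 2.602 and 1.07 CPM in normal 1 to 4. Foxc2, also on the list and active in early nephrons, was lower, at 40.3 to 48.2 CPM in K and 49.96 to 58.1 CPM in normal.

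Of 13 leukocyte markers 8 were higher in every K litter (61.5%, against 4.87%), at medians of 1.41 with all litters and 1.00 without K 3 and K 4, but levels were low. C1qb, a complement gene of macrophages, was at 1.41, 1.34, 1.93 and 2.30 CPM in K 1 to 4, against 0.094, 0.098, 0.43 and 0.24 CPM in normal 1 to 4 (paired adjusted p = 0.0342), and Ptprc, the pan-leukocyte CD45, was at 2.012 to 9.76 CPM in K and 1.67 to 2.69 CPM in normal. Tubule segments depended most on K 3 and K 4. All 16 proximal tubule markers were higher over all litters at 1.28, and all 16 were lower without K 3 and K 4, at -0.71. Lrp2, the endocytic receptor megalin, was at 319, 249.8, 1948 and 2178 CPM in K 1 to 4, against 208, 102, 621 and 774 CPM in normal 1 to 4. The numbers 3 and 4 were high in both arms, and K was higher in each same-numbered pair. In the paired fit 8 of the 16 markers were called higher, where 2.16% of all genes were. Lrp2, Slc27a2 and Hnf4a were among them (paired adjusted p = 0.0342, 0.00625 and 0.0104). Slc12a1, which takes up salt in the loop of Henle, was at 512, 135, 1696 and 1606 CPM in K 1 to 4, against 291, 99.0, 391 and 154 CPM in normal 1 to 4, and Slc12a3, its distal counterpart, had the same order. Hba-a1, a haemoglobin gene with a near-identical copy, was at 15.04 to 71.5 CPM in K and 21.4 to 47.5 CPM in normal, and its difference changed sign without K 3 and K 4.

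**Figure D5:**
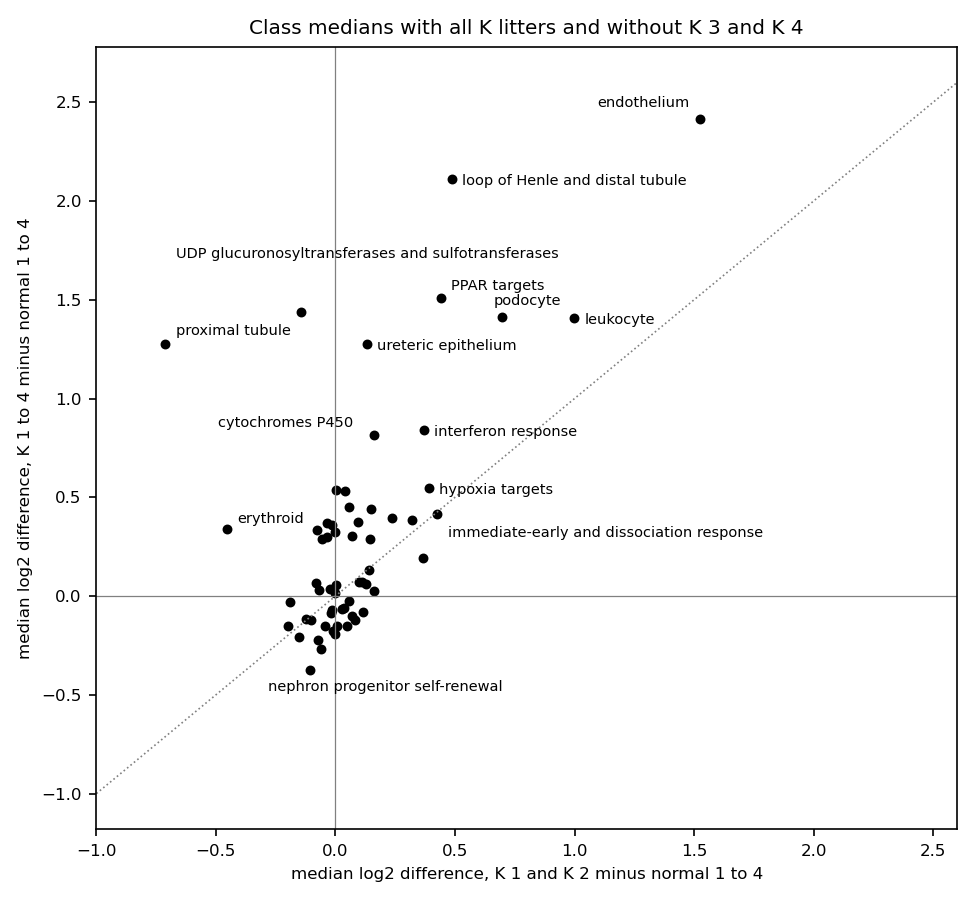
Each point is a gene class, placed by its median log2 difference of K 1 and K 2 from the normal litters (x axis) and of all 4 K litters from the normal litters (y axis); on the dotted line both are equal. Endothelium, leukocyte, hypoxia and immediate-early classes were above 0 on both axes, while proximal tubule markers were at 1.28 on the y axis and -0.71 on the x axis.

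Transport and detoxification genes, which the maturing tubule is known for, followed K 3 and K 4. Of 292 solute carriers 225 were higher at a median of 0.33, and 144 at 0.00 without those litters; 18 were higher in every K litter (6.16%, near the 4.87% of all genes), and 26 were called higher in the paired fit, where 2.16% of all genes were. Of 26 cytochromes P450 22 were higher at 0.81, and 16 at 0.16 without K 3 and K 4. All 10 UDP glucuronosyltransferases and sulfotransferases were higher at 1.44, and 4 of 10 at -0.15. The words of the gene descriptions gave the same order: among 137 words held by at least 40 tested genes, sodium had the highest median at 0.85 (0.00 without K 3 and K 4), and pseudogene, homeobox and protocadherin had the lowest at -0.18, -0.16 and -0.16 (0.00, -0.06 and 0.05).

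Counts by gene type, size and level are given beside the shares over all genes. Of 1262 processed pseudogenes, whose reads are hard to tell from those of their parent genes, 916 were lower in K at a median of -0.19; without K 3 and K 4 they split evenly, 631 to 631. Of 172 transcripts annotated as sense intronic 11 were higher in every K litter (6.40%, near the 4.87% of all genes) and 1 was lower, with medians of 0.06 with all litters and 0.13 without K 3 and K 4. Among protein-coding genes the 20% with the longest span had 222 genes higher in every K litter (8.03%) and 122 lower (4.41%). The shortest 20% had 140 higher (5.06%) and 166 lower (6.004%), near the 5.64% and 5.92% of all protein-coding genes. By level, the most abundant 20% of tested genes had 166 higher in every K litter (4.69%) and 312 lower (8.81%). The least abundant 20% had 172 higher (4.86%) and 73 lower (2.06%). Over all genes tested the shares were 4.87% and 5.26%, so the higher shares were near it and only the lower shares stood apart.

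K was also compared with BHB in the same edgeR fit, and no other tool was run for it. No gene was called (0%, smallest adjusted p = 0.403), and 1456 genes had an unadjusted p under 0.05, 658 higher in K and 798 lower. mt-Nd6 averaged 366 ± 41.3 CPM in K and 226 ± 35.1 CPM in BHB (SD, n = 4 each; log2 difference 0.70 ± 0.15 SE), and Fnip1 averaged 82.9 ± 3.70 CPM in K and 57.3 ± 9.74 CPM in BHB (0.53 ± 0.11 SE). Both had an adjusted p of 0.530. Other genes named above were nearer or reversed between K and BHB. Dusp1 differed by 0.13 ± 0.23 SE, Slc2a1 by 0.16 ± 0.24 SE and Entpd1 by -0.52 ± 0.42 SE. The endothelial gene Pecam1 differed by 0.05 ± 0.66 SE, an interval that allows a large difference either way.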

How the data were processed

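RNA of sorted Six2-GFP-positive cells, pooled per litter, was sequenced with a stranded total RNA kit and single reads of 100 cycles, per the labels' protocols. The authors deposited raw counts per gene and a normalized signal, which entered no test. DESeq2 1.36.0, HTSeq 2.01, TopHat2 2.1.1 and cutadapt 2.10 are named in the submitters' processing notes, with no role given. The labels state no genome build, annotation or strand setting, so reads of antisense neighbours may be mixed and no coordinates of the files are printed. Of 55414 gene entries, 6250 with blank counts were left out. A symbol was missing or shared for 757 of the others, and 48361 were matched by identifier to GENCODE for gene type and size. Counts reached 8292620 to 11404335 per library, and low genes carry the largest counting error.

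The gene lists, the comparison and the rule for named genes were chosen with earlier results of these data known, so no list is independent evidence. Analysis used R 4.3.3. Genes were kept by filterByExpr (count of 10, total of 15), scaled by TMM, and tested with the robust quasi-likelihood test of edgeR 4.0.16 on all 12 libraries with a mean per arm (9 residual degrees of freedom). An adjusted p at or under 0.05 counted as called. The fit was first run on simulated counts, drawn independently for each gene with no component shared among litters. That run cannot show how the fit behaves where litters share such a component. Because litters are the replicates, p-values measure the spread between litters. Levels are TMM-scaled CPM, and log2 CPM used a prior count of 2. Gene classes were described by counts and medians, without a set test. The 12 leading genes per direction are those of smallest p among genes without overlap and with at least 1 CPM in an arm; up to 4 members of smallest p were named per list, with defining genes of cell types and any gene called in a fit of few calls. Some genes that this rule takes are not reported here.

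Deviations of same-numbered K and normal libraries from their arm means correlated at 0.114, 0.461, 0.338 and 0.238 over genes. Each passed 0.1, the level set for pairing, although K 1 correlated more with normal 2 (0.464) and K 4 more with normal 3 (0.442), and the labels do not say what a number marks. Alternatives were DESeq2 1.42.0, limma 3.58.1 voom with sample weights, DESeq2 size factors, other filters, the replicate block, and leaving out libraries. Promoter bases came from RefSeq on GRCm38.p6.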

Additional observations from a re-analysis of the deposited data

Results flagged for a closer look

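In 14 of 364 groups of 4 litters examined (3.85%), 1 litter lay far from the other 3, with a gap to the next litter, divided by the group's range, above Dixon's critical value; chance gives about 1 in 20. Among normal litters, the gap was 1 for Ccm2l, seen in normal 1 alone. It was 0.894 for Sox13, lowest in normal 4, and 0.934 for the desaturase Scd1, lowest in normal 2. Hoxd12 and the amino acid exchanger Slc3a2 were highest in normal 4, with gaps of 0.912 and 0.968. Meox2 was highest in normal 2 (0.836) and Sema3e, an axon guidance ligand, in normal 1 (0.929). The tRNA synthetases as a class were highest in normal 2 (0.862).

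Among K litters, the kinase Tnk2 (0.883), the mitosis class (0.844) and the biotype TEC (transcripts awaiting experimental evidence) (0.876) were lowest in K 3. The complex I gene Ndufc2 was highest in K 3 (0.961), Zfp36l1 was highest in K 4 (0.837), and the proteasome class was lowest in K 4 (0.845).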

How the results depend on the processing

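No gene was called under edgeR with size factors of DESeq2, with a minimum of 1 CPM, with the 8 libraries alone, with the replicate block over 12 libraries, or without K 3 and K 4. The count was 2 without the filter, 2 with limma voom, 296 with DESeq2 and 438 with the replicate block over the 8 libraries, and 0 to 1 when a library was left out. Chosen after seeing the data, the paired fit gave 850 calls without pair 1, 528 without pair 2, 0 without pair 3 or pair 4, and 976 with pairs 1 and 2 alone, where 1 residual degree of freedom is left; 376, 296, 0, 0 and 278 of these were among the 438. Genes higher in every K litter numbered 2071 without the filter, 1881 without K 3 and K 4, and 1001 to 1926 with a library left out; genes lower in every K litter numbered 1789 without K 3 and K 4 and 1056 to 1765 with a library left out. Fewer litters make separation easier by construction.

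Of 2072 values of 122 named genes under these alternatives, 1944 kept direction and side of the threshold, 122 moved past it and 6 changed sign. Hba-a1 was at -0.44 with limma voom, -0.80 without K 3 and K 4 and -0.20 to 0.53 with a library left out; in the paired fit it was at -0.051 without pair 3, -0.47 without pair 4 and -0.93 with pairs 1 and 2 alone. Without K 3 and K 4, Slc27a2 was at -0.25, Lrp2 at -0.58 and Hnf4a at -0.29. Of 60 classes, 22 changed the sign of their median without K 3 and K 4. No scaling moved the median of all genes beyond 0.01. Genes under a few CPM are limited by depth. The cause of these changes was not tested.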

Other observations

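Single genes of other lists also separated the arms. Tet2, which oxidises methylcytosine, was at 206, 204, 241 and 242 CPM in K 1 to 4, against 163, 162, 176 and 174 CPM in normal 1 to 4, and Cbx2, a Polycomb reader, was at 38.3, 46.7, 32.0 and 31.9 CPM, against 60.4, 57.5, 48.7 and 51.4 CPM (paired adjusted p = 0.0392 and 0.0404). Of the 20 genes of the DNA methylation and Polycomb list, 2 were higher in every K litter and 1 was lower (10% and 5%, against 4.87% and 5.26% of all genes). Imprinted growth genes stood on both sides, with 7 of 16 higher at a median of -0.07, and 7 of 16 at -0.02 without K 3 and K 4: Meg3 was at 29.5, 30.2, 35.7 and 43.1 CPM in K 1 to 4, against 16.9, 18.1, 15.4 and 15.9 CPM in normal 1 to 4, and Peg10 was at 7.95 to 15.7 CPM in K and 4.77 to 5.85 CPM in normal. Ndn, another imprinted gene, was at 45.1 to 64.8 CPM in K and 66.7 to 80.4 CPM in normal. All 3 were called in the paired fit.

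Ion channels, laminins and integrins were mostly higher, while matrix proteases were split and cadherins were mostly lower. Of 107 ion channel genes 69 were higher at a median of 0.29, and 77 at 0.15 without K 3 and K 4. Trpc5, a calcium-permeable channel, was at 3.22, 3.26, 2.90 and 2.92 CPM in K 1 to 4, against 1.98, 1.37, 1.65 and 1.552 CPM in normal 1 to 4, with all K litters alike, whereas Kcnn2, a potassium channel, was at 1.246 to 3.43 CPM in K and 0.60 to 0.95 CPM in normal. Of 37 laminins, nidogens and integrins 30 were higher at 0.44, and 27 at 0.15 without K 3 and K 4; Lama3 was at 2.42 to 9.71 CPM in K and 0.95 to 1.79 CPM in normal. Col4a3, a collagen of the mature glomerular basement membrane, was at 10.5 to 86.7 CPM in K and 5.13 to 10.3 CPM in normal. Of 60 matrix proteases and inhibitors 31 were lower at -0.01, and 26 at 0.05 without K 3 and K 4. Protocadherins and cadherins were lower in 50 of 67 cases at -0.15, but at 0.05 without K 3 and K 4, and Pcdhb9, with close paralogs in its cluster, was at 3.65 to 5.56 CPM in K and 7.06 to 8.00 CPM in normal.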
